A study of Mus musculus with 24 samples.

Results

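The comparison described here set 4 libraries of ER-Hoxb8 cells carrying P199L-ERG beside 4 libraries of ER-Hoxb8 cells carrying the empty vector (backbone, BB), all 8 from cells treated with the HDAC3 inhibitor BRD3308. The libraries were chosen by their construct and treatment labels, as 8 of the 24 RNA sequencing libraries of the series. Of 53801 genes in the count table, the 12963 that passed a low-count filter were compared. ER-Hoxb8 cells are C57BL/6 mouse granulocyte-monocyte progenitors held immature by an estrogen-regulated Hoxb8 transgene, which both constructs and both treatments share. Both lines were made with a lentivirus that expresses GFP from a minimal CMV promoter. In P199L-ERG cells the lentivirus also carried a human ERG cDNA with an HA tag under the hPGK promoter, in which leucine replaces a proline, the P199L change. WT-ERG cells, used below as a second reference, carried the unmutated human cDNA. Transduced cells were sorted by GFP into stable lines, beta-estradiol was washed away, and the cells were kept with 5 µM BRD3308 or with its solvent DMSO for 36 h. The study's results section gives another duration for this experiment and a figure legend another dose. The study names 4 independent experiments per sample type, and separate transductions of the replicates are not stated in the sources used here, so differences between constructs can include differences between the derived lines.

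ERG is an ETS transcription factor needed to maintain haematopoietic stem cells, where it works with GATA2, RUNX1, TAL1, LYL1, LMO2 and FLI1, together called the heptad. HDAC3 is the enzyme of the NCoR co-repressor complex and removes acetyl groups from histones. During maturation toward neutrophils, progenitors first make the proteins of primary granules, such as myeloperoxidase, then those of secondary and tertiary granules, and later the receptors, adhesion molecules and oxidase of the mature cell.

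The 8 libraries held 13729553 to 15775631 counts, and the 24 libraries 12510036 to 16280939. Replicates of a group differed by more than sampling noise, so no library was a copy of another. Markers of granulocyte-monocyte progenitors were abundant in all 8 libraries. RPKM values, which are counts scaled to depth and exon length, of *Mpo*, the myeloperoxidase of primary granules, were 3596 to 4137 in BB cells and 4261 to 4767 in P199L-ERG cells, and those of *Kit*, the stem cell factor receptor, were 28.8 to 30.1 and 30.5 to 31.5. Reads of *Hoxb8*, which include those of the transgene, were at 323 to 335 and 316 to 326 RPKM. In a principal component analysis of the 8 libraries the first component, with 45.7% of the variance, placed all BB libraries between -20.05 and -16.04 and all P199L-ERG libraries between 16.7 and 19.7. The second component held 14.97% of the variance and ordered the libraries by replicate number in both constructs. It placed replicates 1 to 4 at 18.2, 2.33, -5.88 and -11.7 in BB and at 14.1, 0.0126, -6.17 and -10.8 in P199L-ERG libraries.

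With BRD3308, 2194 genes differed between P199L-ERG and BB cells, 16.9% of those tested (edgeR quasi-likelihood test, adjusted p under 0.05). P199L-ERG cells were higher in 1052 genes, 8.12%, and lower in 1142, 8.81%. Differences were mostly small. The median log2 fold change was 0.27 over the genes that were higher and -0.32 over those that were lower, and 121 and 128 genes differed by more than 1 on the log2 scale. At an unadjusted p under 0.05, 3645 genes passed. All fold changes below are P199L-ERG over BB with BRD3308 unless another pair is named, on the log2 scale with their standard errors (SE), and levels are CPM, counts relative to library depth scaled with TMM factors. Genes are called higher or lower only where they passed the adjusted p. Counts of list members called with BRD3308 below are to be set beside 8.12% higher and 8.81% lower over all genes tested.

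**Figure D1:**
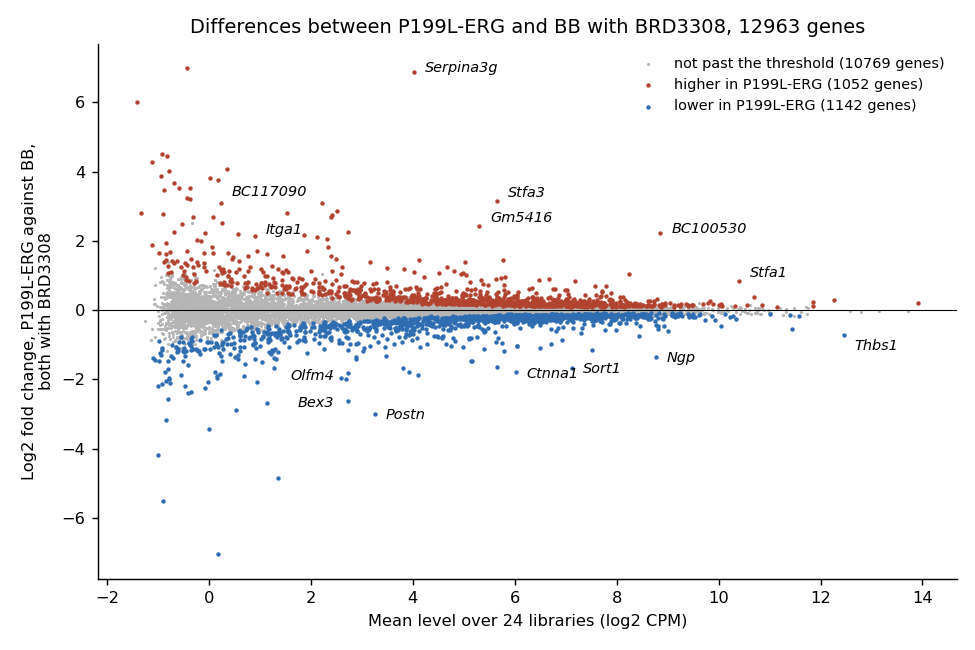
Each point is a gene, with its mean log2 CPM over 24 libraries on the x axis and its log2 fold change between P199L-ERG and BB cells with BRD3308 on the y axis; red genes were higher in P199L-ERG cells, blue genes lower, and grey genes did not pass the threshold. *Serpina3g* stands far above the other genes of its level at 6.89, *BC100530* combines a fold change of 2.21 with a high level, and *Postn* is the largest fall at -2.998 among the labelled genes.

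Among genes whose mean log2 CPM over the 24 libraries was 2 or more, the largest rise was that of *Serpina3g* (ENSMUSG00000041481). That mean includes the libraries of ERG cells, so a gene near 0 in BB cells can pass through them alone. *Serpina3g* encodes a serine protease inhibitor of the serpin clade A. BB cells with BRD3308 held 1, 3, 3 and 2 reads in their 4 libraries, and P199L-ERG cells held 299, 262, 324 and 295. All BB libraries were thus close to no reads, and the P199L-ERG libraries did not come near them. Groups without overlap were required by the rule that chose the gene. The fitted fold change was 6.89 ± 0.21 (adjusted p = 7.7e-20). From the pooled reads, 9 against 1180, the ratio was 126 with an exact counting interval of 66.1 to 276, which covers counting error only. Serpin clade A genes have near-identical copies in the mouse, and how reads shared between copies were counted is not given in the sources used here.

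The stefin A genes formed the second group of rises. Stefins are cytosolic inhibitors of cysteine cathepsins, and in the mouse the stefin A genes lie side by side on chromosome 16. From 36184212 to 36455392 (GRCm38), 9 genes with no more than 100 kb between neighbours were higher, with fold changes from 0.83 to 3.16: *Gm5483*, *Gm5416*, *2010005H15Rik*, *Stfa1*, *BC117090*, *BC100530*, *Gm15845*, *Stfa2* and *Stfa3*. *Stfa3* was at 6.66, 8.81, 8.27 and 13.2 CPM in the BB libraries and at 74.5, 77.6, 85.1 and 91.1 CPM in the P199L-ERG libraries (3.16 ± 0.18, adjusted p = 1e-13). The groups lie well apart, with the highest BB library far below the lowest P199L-ERG library, and the rule that chose the gene required no overlap. *BC100530*, the stefin A gene with the second highest CPM of the cluster, went from 100.2, 119.8, 129 and 153 CPM to 518, 581, 596 and 632 CPM (2.21 ± 0.15, adjusted p = 3.3e-12). *Stfa1*, the highest in CPM, was at 743, 830.4, 914 and 1043 CPM in BB cells and at 1415, 1606, 1641 and 1709.6 CPM in P199L-ERG cells, a smaller fold change of 0.85 ± 0.12 (adjusted p = 6.7e-06). *Gm5416* rose by 2.44 ± 0.14, *Stfa2* by 2.74 ± 0.24, *BC117090* by 3.09 ± 0.26 and *2010005H15Rik* by 1.44 ± 0.16, the last named after its values were seen. The copies are near-identical, so the split of reads between them is uncertain, and *Gm15845* (2.24 ± 0.17) overlaps *BC100530* on the other strand, whose reads cannot be told apart from its own without the strand setting.

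The other large rises came from genes of different functions. *Arap2*, which encodes a GTPase-activating protein for ARF6, was at 0.444, 0.881, 0.667 and 0.939 CPM in BB and at 5.44, 5.13, 5.75 and 4.997 CPM in P199L-ERG libraries (2.87 ± 0.18, adjusted p = 8.5e-13). *Scd1*, the stearoyl-CoA desaturase that makes monounsaturated fatty acids, was at 0.762, 0.807, 0.934 and 1.08 CPM and at 7.47, 6.40, 4.90 and 4.59 CPM (2.70 ± 0.19, adjusted p = 1e-11). *Itga1*, the collagen-binding integrin subunit alpha 1, was at 3.62, 2.57, 4.07 and 2.96 CPM and at 15.5, 14.3, 13.7 and 13.9 CPM (2.10 ± 0.13, adjusted p = 6.9e-13). In all of these genes every P199L-ERG library lay above every BB library, as the rule that chose them required. *Slc22a3*, an organic cation transporter, rose by 2.06 ± 0.30 from a mean of 0.454 CPM, and *Zdhhc2*, a palmitoyltransferase, by 1.81 ± 0.16 from 1.40 CPM.

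**Figure D2:**
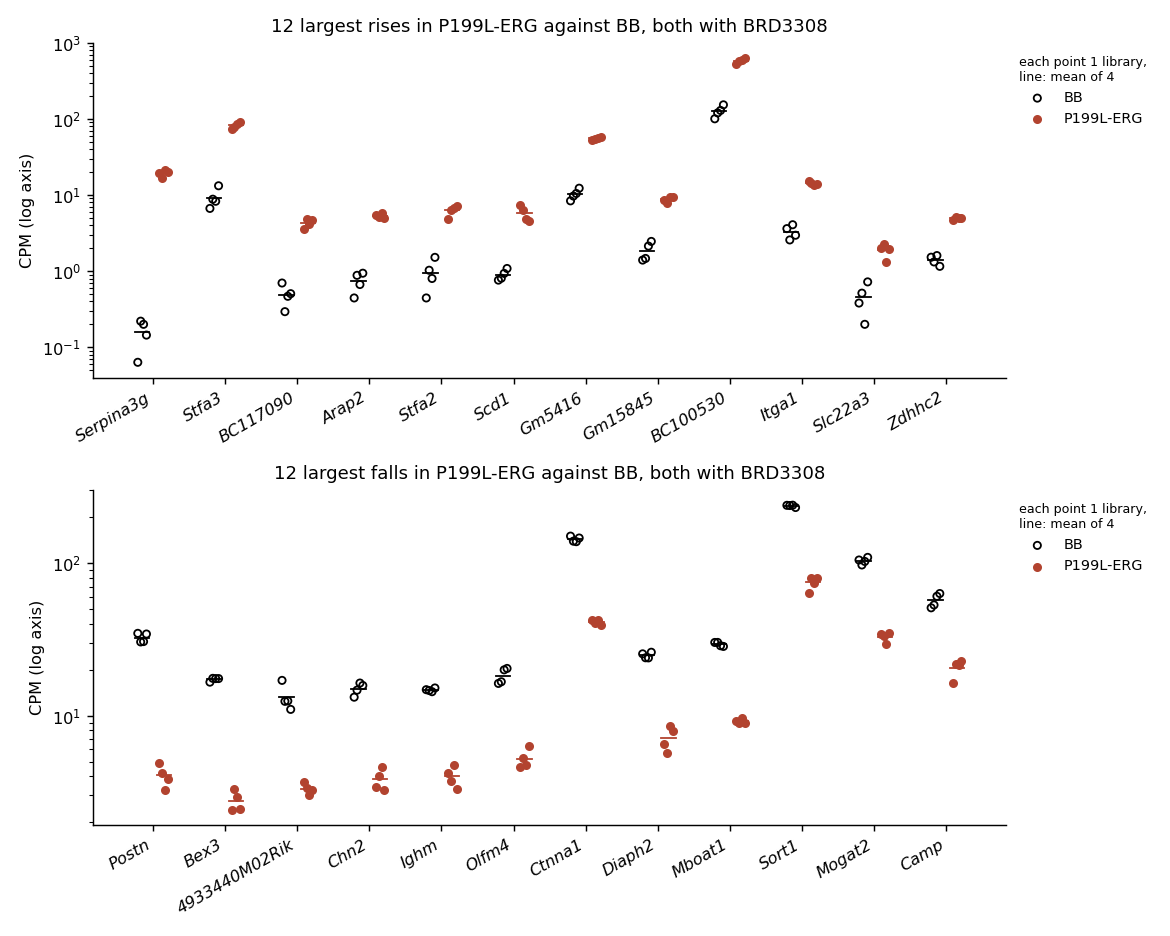
CPM on a log axis in each of the 4 BB (open) and 4 P199L-ERG (filled) libraries with BRD3308, with the group means as lines, for the 12 largest rises and the 12 largest falls among called genes whose mean log2 CPM was 2 or more and whose groups did not overlap. The spread within a group is small beside the distance between groups in each gene, and *Serpina3g* in BB cells, with 1 to 3 reads per library, is the lowest.

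The first 250 bases before the start site of the 3 largest rises with a promoter in the reference table are shown because these genes rose most among those in that table. They are RefSeq sequences on GRCm38.p6, written 5′ to 3′ on the strand of the gene, for *Serpina3g* (chr12:104235897-104236146, plus strand), *Stfa3* (chr16:36455393-36455642, minus strand) and *Arap2* (chr5:62766178-62766427, minus strand). *BC117090* has no entry in the table. Capitals mark AGGAAG or CGGAAG, which hold the GGAA core of ETS factors, on either strand.
Serpina3g: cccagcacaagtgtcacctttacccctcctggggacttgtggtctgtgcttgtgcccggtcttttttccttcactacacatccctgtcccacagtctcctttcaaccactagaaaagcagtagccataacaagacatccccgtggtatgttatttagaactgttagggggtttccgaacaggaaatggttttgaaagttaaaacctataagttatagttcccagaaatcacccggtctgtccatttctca
Stfa3: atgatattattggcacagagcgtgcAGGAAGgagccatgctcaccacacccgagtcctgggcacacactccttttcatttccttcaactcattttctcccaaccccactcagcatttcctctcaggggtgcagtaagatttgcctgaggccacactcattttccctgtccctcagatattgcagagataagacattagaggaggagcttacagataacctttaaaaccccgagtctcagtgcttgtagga
Arap2: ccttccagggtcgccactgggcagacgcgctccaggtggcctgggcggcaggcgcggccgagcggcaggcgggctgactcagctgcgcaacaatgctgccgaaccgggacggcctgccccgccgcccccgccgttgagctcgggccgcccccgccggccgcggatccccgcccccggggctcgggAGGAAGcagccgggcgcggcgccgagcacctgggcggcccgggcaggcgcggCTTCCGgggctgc
In these windows *Stfa3* held 1 match, *Arap2* 2 and *Serpina3g* none.

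Among the falls at that level, *Postn* (ENSMUSG00000027750) was the largest. It encodes periostin, a secreted protein of the extracellular matrix, and was at 34.6, 30.4, 30.6 and 34.2 CPM in BB and at 4.91, 4.18, 3.27 and 3.85 CPM in P199L-ERG libraries (-2.998 ± 0.11, adjusted p = 7.4e-18). *Bex3*, a small adaptor of the p75 neurotrophin receptor, was at 16.6, 17.5, 17.5 and 17.5 CPM and at 2.42, 3.29, 2.94 and 2.43 CPM (-2.63 ± 0.12, adjusted p = 4.1e-16). The long noncoding RNA *4933440M02Rik* was at 17.01, 12.4, 12.5 and 10.98 CPM and at 3.67, 3.36, 3.01 and 3.24 CPM (-1.997 ± 0.13, adjusted p = 2.3e-12). No P199L-ERG library came near the lowest BB library in any of them, and the rule that chose them required groups without overlap.

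Several falls came from genes at higher levels, where sampling error is smaller. *Sort1*, which encodes the sorting receptor sortilin, was at 239, 238, 239 and 231 CPM in BB cells and at 63.98, 80.3, 73.9 and 79.8 CPM in P199L-ERG cells (-1.67 ± 0.06, adjusted p = 2.7e-18). *Ctnna1*, alpha-catenin of adherens junctions, was at 149.9, 139, 138 and 146 CPM and at 42.1, 40.5, 42.6 and 39.3 CPM (-1.80 ± 0.05, adjusted p = 6.7e-20). *Mogat2*, a monoacylglycerol acyltransferase of triglyceride synthesis, was at 105, 97.02, 102 and 109 CPM and at 34.2, 33.1, 29.5 and 34.9 CPM (-1.65 ± 0.06, adjusted p = 6.5e-18). In all 3 genes the P199L-ERG libraries were the low ones, with no overlap, as the rule that chose them required. *Chn2*, a GTPase-activating protein for Rac, fell (-1.97 ± 0.11), as did *Diaph2*, a formin of the actin cytoskeleton (-1.79 ± 0.09), and *Mboat1*, a lysophospholipid acyltransferase (-1.68 ± 0.07). *Ighm*, the immunoglobulin mu heavy chain, *Olfm4* and *Camp*, secondary granule proteins, completed the 12 falls and are described with their groups.

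The same window is given for the 3 largest falls, *Postn* (chr3:54360857-54361106, plus strand), *Bex3* (chrX:136270003-136270252, plus strand) and *4933440M02Rik* (chr7:125349787-125350036, minus strand), so that both directions can be compared.
Postn: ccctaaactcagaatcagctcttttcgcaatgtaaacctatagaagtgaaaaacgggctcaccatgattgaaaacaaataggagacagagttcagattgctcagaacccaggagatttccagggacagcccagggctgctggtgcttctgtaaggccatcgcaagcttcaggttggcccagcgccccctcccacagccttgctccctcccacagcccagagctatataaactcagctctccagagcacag
Bex3: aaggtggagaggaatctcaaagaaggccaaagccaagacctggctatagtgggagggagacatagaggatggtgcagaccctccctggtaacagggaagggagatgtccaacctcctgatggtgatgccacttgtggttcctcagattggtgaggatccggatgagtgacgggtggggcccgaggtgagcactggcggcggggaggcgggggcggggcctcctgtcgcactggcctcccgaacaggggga
4933440M02Rik: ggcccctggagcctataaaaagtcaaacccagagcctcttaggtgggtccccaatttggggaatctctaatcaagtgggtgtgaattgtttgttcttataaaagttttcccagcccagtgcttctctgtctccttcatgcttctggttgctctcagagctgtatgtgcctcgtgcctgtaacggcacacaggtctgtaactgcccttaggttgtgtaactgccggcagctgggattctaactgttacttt
None of the 3 held AGGAAG or CGGAAG on either strand. Of the 12 largest rises 6 and of the 12 largest falls 8 had a promoter in the table. Over the 9305 tested genes with a promoter there, 48.3% held a match, 28.7% AGGAAG and 27.2% CGGAAG. Among genes that were higher the shares were 43.1%, 28.7% and 19.9% (799 promoters), and among genes that were lower 47.0%, 34.1% and 18.5% (897 promoters). A match is a description of these letters and not a binding site.

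Stem and progenitor genes were more often higher than lower in P199L-ERG cells. Of 26 members of the list, 17 were tested, of which 8 were higher and 2 lower, with a median fold change of 0.27 beside 0.0018 over all genes tested. *Gata2*, a transcription factor of stem and mast cell precursors, was at 12.4, 12.5, 14.6 and 15.1 CPM in BB and at 19.9, 19.2, 20.6 and 23.7 CPM in P199L-ERG libraries (0.61 ± 0.09, adjusted p = 1.2e-05). *Lmo2*, the adaptor that bridges heptad factors, was at 119.8, 118, 119 and 119 CPM and at 163, 162, 162 and 159 CPM (0.44 ± 0.04, adjusted p = 1.5e-10). *Bmi1*, a Polycomb protein of stem cell self-renewal, was higher by 0.37 ± 0.05 (adjusted p = 5.1e-07). The exceptions were *Prom1*, the surface protein prominin, which was lower (-0.86 ± 0.07), and *Cd34*, which was lower by less (-0.21 ± 0.05). The increase of *Gata2* and *Lmo2* made up the 2 of 7 heptad genes that were higher, and none was lower. *Erg* itself was at 117, 114, 105 and 109 CPM in BB and at 121, 112, 122 and 118 CPM in P199L-ERG libraries, ranges that overlap. Its difference of 0.09 on the log2 scale had p = 0.114 in an exact two-sided permutation test, which could reach 0.0286 at the smallest, and an adjusted p of 0.193 in edgeR. Reads were mapped to the mouse genome, and the counts cannot separate reads of mouse *Erg* from those of the human transgene.

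Other transcription factors changed by small amounts. *Cebpa*, the master factor of granulocyte-monocyte progenitors, was at 378, 376, 383 and 368 CPM in BB and at 467, 472, 473 and 459.7 CPM in P199L-ERG libraries (0.32 ± 0.03, adjusted p = 1.7e-08). *Zeb2*, a repressor active in monocyte development, was lower (-0.20 ± 0.04), and so were *Irf5* (-0.37 ± 0.10), a factor of inflammatory responses, and *Spi1* (-0.15 ± 0.05), which encodes the ETS factor PU.1. In all, 2 of 16 tested myeloid transcription factors were higher and 3 lower. The second that was higher was *Gfi1* (0.15 ± 0.05, adjusted p = 0.0238), with overlapping CPM between the groups. Its call was lost when any of BB replicates 3 or 4 or P199L-ERG replicates 1, 2 or 3 was left out. Among ETS factors other than ERG and FLI1, 5 of 14 were higher and 2 lower. *Ets1* fell from a mean of 3.50 to 1.76 CPM (-0.99 ± 0.19, adjusted p = 0.00042), and *Etv5* rose from 0.564 to 1.25 CPM (1.14 ± 0.26, adjusted p = 0.00202), both at low levels.

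Calls on granule genes differed between the list of primary granules and that of secondary and tertiary granules. Of 12 tested genes of primary granules, 4 were higher and none lower, with a median of 0.06. These were *Mpo* (0.21 ± 0.04), *Ctsg* (cathepsin G, 0.22 ± 0.04), *Cst7* (cystatin F, 0.26 ± 0.05) and the serine protease gene *Prss57* (0.20 ± 0.04). Of 15 tested genes of secondary and tertiary granules, 7 were lower and 3 higher (median -0.30). *Ngp*, neutrophilic granule protein, was at 609, 671, 745 and 759 CPM in BB and at 245, 274, 279.7 and 293 CPM in P199L-ERG libraries (-1.35 ± 0.12, adjusted p = 8e-10). *Camp*, the antimicrobial cathelicidin, was at 50.8, 53.1, 60.5 and 63.1 CPM and at 16.4, 21.7, 21.3 and 22.8 CPM (-1.47 ± 0.13, adjusted p = 1.9e-09). *Olfm4*, olfactomedin 4 of a subset of neutrophils, was at 16.2, 16.7, 19.9 and 20.4 CPM and at 4.58, 5.26, 4.77 and 6.28 CPM (-1.81 ± 0.16, adjusted p = 8.1e-10). No library of one group reached into the other in these 3 genes, as the rule for the largest falls required of *Camp* and *Olfm4*. *Chil3*, a chitinase-like protein, was lower as well (-1.06 ± 0.11), whereas *Cd177*, a surface partner of proteinase 3, was higher (0.53 ± 0.06), as were *Lrg1* (0.37 ± 0.07), a secreted glycoprotein, and *Adam8* (0.36 ± 0.08), a membrane metalloprotease. The secondary and tertiary granule list includes *Cebpe*, which encodes a transcription factor (-0.01 ± 0.04). The 16 members of that list summed to 8340 to 9661 CPM in BB and 6663 to 7108 CPM in P199L-ERG libraries, with *Lyz2* the highest. The 13 primary granule genes summed to 27688 to 29049 and 30602 to 31884 CPM. In bulk RNA, fewer cells of a type and less RNA per cell cannot be told apart.

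Genes of the mature neutrophil moved both ways, with 6 of 22 tested genes higher and 5 lower and a median of -0.04. *Csf3r*, the receptor for G-CSF, was higher (0.39 ± 0.04, adjusted p = 2.1e-08), as was *Il1r2*, a decoy receptor for interleukin-1 (0.73 ± 0.09, adjusted p = 3.3e-07). The integrin gene *Itgb2*, the beta 2 chain shared by leukocyte integrins, was lower (-0.45 ± 0.04, adjusted p = 1.6e-09), and *Itgam*, its CD11b partner, was lower (-0.13 ± 0.04, adjusted p = 0.0232), a call that was lost without the low-count filter. All called subunits of the NADPH oxidase, which makes superoxide in phagocytes, were lower, 5 of 6 tested, with a median of -0.20. *Cybb*, the catalytic subunit, was at 117, 114, 114 and 131 CPM in BB and at 59.5, 62.2, 61.3 and 65.2 CPM in P199L-ERG libraries (-0.94 ± 0.06, adjusted p = 5.8e-12). The values of other subunits were nearer to 0, as in *Rac2* (-0.19 ± 0.05) and *Cyba* (-0.27 ± 0.07). Of 15 genes of S100 proteins and stefins, 8 were higher and 2 lower, with a median of 0.37. The stefins above account for 5 of the 8, and the members that were lower were *S100a10* (-0.27 ± 0.06) and *S100a11* (-0.31 ± 0.07), members of the same calcium-binding family.

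Monocyte and macrophage genes were mostly lower. Of 21 members, 14 were tested, of which 9 were lower and 2 higher (median -0.35). *F13a1*, coagulation factor XIII A of monocytes, was at 1006, 999, 967 and 991 CPM in BB and at 651, 644, 633 and 676 CPM in P199L-ERG libraries (-0.61 ± 0.04, adjusted p = 3.1e-13). *Adgre1*, which encodes the macrophage antigen F4/80, was lower (-0.53 ± 0.05), as was *Sirpa*, the receptor of the CD47 signal (-0.36 ± 0.04). *Ccr2*, the chemokine receptor of classical monocytes, moved against its list, from 214, 233, 221 and 245 CPM to 358, 362, 368 and 391 CPM (0.70 ± 0.04, adjusted p = 6.5e-13). The other exception was *Fcgr1*, a high-affinity Fc receptor (0.26 ± 0.08, adjusted p = 0.0324), whose call was lost when any of BB replicates 2, 3 or 4 or P199L-ERG replicates 1 or 3 was left out (0.23 to 0.26). The summed level of the list was 4038 to 4315 CPM in BB and 3179 to 3365 CPM in P199L-ERG libraries, and the macrophage genes *C1qa*, *C1qb* and *C1qc* were at 0 in all 8. The part of cells further along the monocyte path in the differences above was not tested.

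Sensors of microbes followed the same direction. Of 19 tested pattern recognition receptors and adaptors, 6 were lower and 1 higher (median -0.24). Among those lower were *Tlr7* (-0.39 ± 0.08), a receptor for single-stranded RNA, *Tlr6* (-0.38 ± 0.08) and *Tlr2* (-0.28 ± 0.07), receptors for bacterial lipopeptides, and *Nlrp3* (-0.74 ± 0.18), an inflammasome sensor. *Nod1*, a sensor of bacterial peptidoglycan, was higher (0.24 ± 0.08, adjusted p = 0.0257), a call that ended when BB replicate 1, 2 or 3 or P199L-ERG replicate 1 or 3 was left out (0.20 to 0.23). Among C-type lectins and Fc receptors, 3 of 16 were higher and 4 lower, the latter including *Clec4a2*, an inhibitory lectin (-0.51 ± 0.06), and *Clec4a3* (-2.55 ± 0.33), which was at means of 1.57 and 0.261 CPM. The calls on the genes that were higher, *Clec5a*, *Fcgr1* and *Clec10a*, were all lost without BB replicate 3 (0.15, 0.25 and 1.04), and that on *Clec5a* also without BB replicate 1 or 2 or P199L-ERG replicate 2 or 4. Interferon-stimulated genes were at 1 higher and 4 lower of 17, with a median of -0.11. The exception was *Ifitm3*, an antiviral membrane protein (0.33 ± 0.05).

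Matrix proteins were lower in 4 of 10 tested genes and higher in 1, with a median of -0.48. Besides *Postn*, *Fn1*, which encodes fibronectin, was at 198.6, 183, 169 and 206 CPM in BB and at 99.9, 82.5, 89.2 and 94.3 CPM in P199L-ERG libraries (-1.05 ± 0.08, adjusted p = 8.2e-11). *Thbs1*, thrombospondin 1, was among the most abundant of all genes, at 10948, 11573, 11582 and 12011 CPM and at 6563, 6719, 7033 and 7434 CPM (-0.73 ± 0.06, adjusted p = 1.2e-10). Every P199L-ERG library was again below every BB library in both genes. *Fbln1*, fibulin 1 of elastic fibres, rose instead, from 7.87, 9.98, 9.94 and 8.89 CPM to 20.6, 17.2, 19.1 and 19.99 CPM (1.07 ± 0.08, adjusted p = 8.9e-11). Of 17 integrins and adhesion molecules, 5 were lower, among them *Cd44* (-0.21 ± 0.03), the receptor for hyaluronan, and 2 higher, *Itga2b* and *Itga6* (0.21 ± 0.05), the alpha 6 chain of laminin receptors.

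Of 19 tested receptors for growth factors and cytokines, 2 were higher and 4 lower, beside 8.12% and 8.81% of all genes tested. *Il6ra*, the receptor for interleukin-6, was lower (-0.81 ± 0.06, adjusted p = 1.5e-10), as was *Csf2ra*, the ligand-binding chain of the GM-CSF receptor (-0.54 ± 0.08, adjusted p = 7.3e-06). *Csf1r*, the receptor for the macrophage factor M-CSF, was lower by less (-0.33 ± 0.06), and *Flt3*, the receptor of early progenitors, was higher (0.68 ± 0.16) at means of 2.47 and 3.96 CPM. Thus the chains for GM-CSF and M-CSF were lower where *Csf3r* was higher. Among 8 tested chemokine receptors, *Ccr2* and *Cxcr2*, the receptor that draws neutrophils (0.41 ± 0.06), were higher, and *Ccrl2* (-0.53 ± 0.07) and *Cxcr4*, which retains cells in the marrow (-0.13 ± 0.03), were lower. Of 14 cytokines and chemokines, 2 were higher, *Cxcl10* (0.40 ± 0.11) and *Mif* (0.27 ± 0.07), and 4 lower, including *Csf1* (-0.46 ± 0.08), the gene for M-CSF.

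Genes of other blood lineages were measured as markers of cells that the cultures could hold. B lymphocyte genes were lower in 4 of 7 tested and higher in none, with a median of -0.45. *Ighm* was at 14.8, 14.6, 14.3 and 15.2 CPM in BB and at 4.19, 3.74, 4.77 and 3.31 CPM in P199L-ERG libraries (-1.88 ± 0.10, adjusted p = 6.5e-14), and *Igll1*, a chain of the surrogate light chain, was lower (-0.45 ± 0.06). The list summed to 186 to 207 CPM in BB and 133 to 146 CPM in P199L-ERG libraries, with *Rag1* at 0 in all 8. Of 4 tested T and NK genes, *Thy1* (0.61 ± 0.05), a surface glycoprotein, and *Nkg7* (0.51 ± 0.05), a granule membrane protein, were higher and none was lower, and the list summed to 367 to 388 and 535 to 552 CPM, with *Cd2*, *Cd7*, *Gzmb* and *Il2rb* at 0. Mast cell and basophil genes were divided. *Cpa3*, mast cell carboxypeptidase, was at 26.8, 26.1, 22.2 and 24.1 CPM and at 49.4, 45.6, 47.1 and 42.7 CPM (0.90 ± 0.07, adjusted p = 1.2e-10), and *Mcpt8*, a basophil protease, was higher by a like amount (0.90 ± 0.07). *Hdc*, the enzyme that makes histamine, was lower (-0.56 ± 0.05), and so was *Gata1* (-1.31 ± 0.35), at means under 1 CPM. That list summed to 299 to 340 CPM in BB and 270 to 290 CPM in P199L-ERG libraries, with *Fcer1a*, *Cma1* and *Tpsb2* at 0.

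Erythroid and megakaryocyte genes were lower in 5 of 9 tested and higher in 2, with a median of -0.49. *Itga2b*, the platelet integrin chain CD41, was at 7.997, 6.53, 7.94 and 6.86 CPM in BB and at 19.3, 18.1, 16.3 and 16.3 CPM in P199L-ERG libraries (1.25 ± 0.09, adjusted p = 5e-11). It moved against *Pf4*, platelet factor 4 (-0.49 ± 0.08), and *Car2*, carbonic anhydrase 2 (-0.29 ± 0.06), which were lower. The list summed to 772 to 813 and 812 to 854 CPM, and the globin genes *Hbb-bt*, *Hbb-bs* and *Hba-a1* as well as *Car1*, another carbonic anhydrase, were at 0. Of 4 tested dendritic cell genes *Flt3* passed, and of 3 tested genes of cells outside the blood only *Pecam1*, an adhesion molecule of endothelium that leukocytes also make (0.28 ± 0.04). These lists summed to 60.7 to 67.3 and 69.6 to 74.8 CPM for dendritic cell genes, with *Siglech* and *Cd209a* at 0, and to 292 to 325 and 361 to 397 CPM for the genes outside the blood, with *Col3a1*, *Dcn* and *Krt18* at 0. The part of any such cells in the results was not tested.

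Some groups had few calls. None of 15 mitosis genes and none of 12 genes of MHC class I presentation passed, with medians of -0.01 and -0.03 (edgeR). In the groups compared alone the class I genes *H2-D1* (-0.08), *B2m* (-0.11) and *Psmb8* (0.11) passed, the first also in DESeq2 (-0.08) and without BB replicate 1 (-0.10). Of 19 DNA replication genes, 2 were lower, *Mcm5* (-0.11 ± 0.03) and *Pcna* (-0.12 ± 0.04), and both calls were lost without the low-count filter (-0.10 and -0.11), that on *Pcna* also without BB replicate 3 or 4 or P199L-ERG replicate 2 or 3 (-0.12 to -0.11). *Tyms*, thymidylate synthase, and *Rrm2*, a subunit of ribonucleotide reductase, missed the threshold (-0.12 ± 0.04 and -0.15 ± 0.06) and were called lower in 8 and 5 of 18 alternatives. Among the 12 genes of the NCoR-HDAC3 complex and class I histone deacetylases, *Cbfa2t3*, a co-repressor of the ETO family, was higher (0.27 ± 0.07), a call that ended without BB replicate 4 or P199L-ERG replicate 2 (0.22 in each). *Hdac3*, whose product the inhibitor targets, was at a difference of 0.10 ± 0.04 (adjusted p = 0.132). Of 18 Polycomb genes, *Bmi1* and *Pcgf6* (0.38 ± 0.09) were higher and *Phc2* (-0.13 ± 0.04) lower, a call that ended without BB replicate 1, 3 or 4 or P199L-ERG replicate 1, 2 or 4 (-0.13 in each). None of 6 tested genes of MHC class II and costimulation passed, whereas *Cd80*, a costimulatory ligand, passed in the groups compared alone (-0.25).

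Of the smaller groups, the serpins held the largest change, that of *Serpina3g*. Of 7 tested serpins, *Serpina3g* and *Serpinb10* (0.18 ± 0.05, adjusted p = 0.019) were higher and 3 were lower, among them *Serpinb6a* (-0.38 ± 0.11). The call on *Serpinb10* ended without BB replicate 1 or 2 or P199L-ERG replicate 3 or 4 (0.15 to 0.17), and that on *Serpinb6a* without BB replicate 4 (-0.29). Of 14 genes of the eicosanoid pathway, 4 were lower, such as *Ptgds* (-0.60 ± 0.07), a prostaglandin D synthase, and *Ltb4r1* (-0.30 ± 0.07), the receptor for leukotriene B4. *Cysltr1*, the receptor for cysteinyl leukotrienes, was higher (0.71 ± 0.11, adjusted p = 4.2e-05). Of 8 tested cyclin-dependent kinase inhibitors and D cyclins, *Ccnd2* (0.24 ± 0.05) and *Ccnd1* (0.45 ± 0.11), which drive entry into the cycle, were higher, and *Cdkn2c* (-0.49 ± 0.05) and *Cdkn1a* (-0.18 ± 0.06), which hold it back, were lower. The call on *Cdkn1a* ended without BB replicate 2 or without P199L-ERG replicate 3 or 4 (-0.18 to -0.14). In the BCL2 family, 1 of 13 was higher and 1 lower, near the shares of 8.12% and 8.81% over all genes tested. These were *Bcl2*, which protects from apoptosis (0.29 ± 0.06), and *Bmf*, which promotes it (-0.34 ± 0.08).

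**Figure D3:**
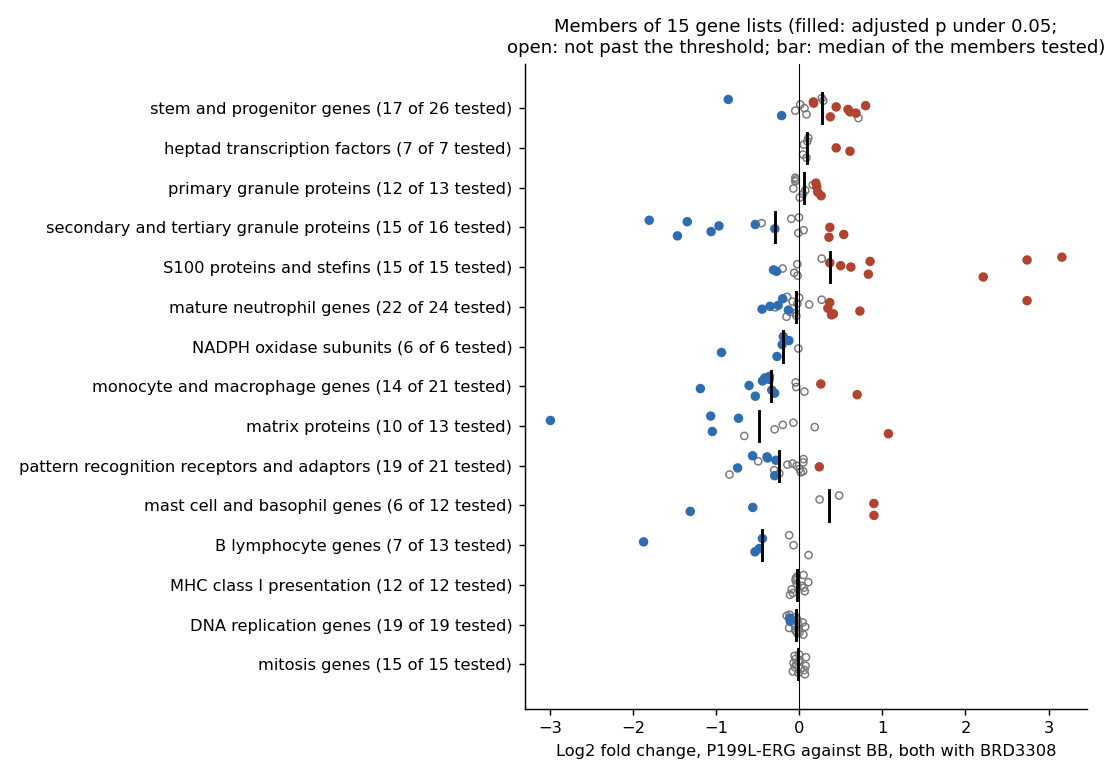
Log2 fold changes between P199L-ERG and BB cells with BRD3308 (x axis) of the tested members of 15 gene lists (y axis); filled points passed adjusted p under 0.05 (red higher, blue lower), open points did not, and black bars are medians. Primary granule genes lie between -0.07 and 0.26 while secondary and tertiary granule genes reach -1.81, and mitosis genes stay within a narrow band around 0.

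Besides the stefin A cluster, 7 runs of at least 4 neighbouring genes, with no more than 100 kb between them, moved in 1 direction. The genes named here were chosen after their values were seen. On chromosome 11 (70130329 to 70221064), *Mgl2*, a macrophage galactose lectin (1.18 ± 0.09), was higher together with *Clec10a*, *Slc16a11* and *Slc16a13*, of which the call on *Clec10a* ended without BB replicate 1 or 3 or P199L-ERG replicate 1 or 2 (1.04 to 1.33). On chromosome 2 (84936579 to 85047109), *Prg3* (-1.22 ± 0.16) and *Prg2* (-1.20 ± 0.36), which encode eosinophil granule proteins, were lower with 3 neighbours, and the call on *Prg2* ended without BB replicate 2 or P199L-ERG replicate 1 or 2 (-1.07 to -1.04). On chromosome 5 (137787798 to 137871815), the paired immunoglobulin-like receptors *Pilra* (-0.76 ± 0.08), *Pilrb1* (-0.34 ± 0.07) and *Pilrb2* (-0.40 ± 0.08) were lower. On chromosome 7 (43444083 to 43575461), *Cd33*, a sialic acid receptor of myeloid cells, was at 488, 547, 559 and 622 CPM in BB and at 296, 317, 344 and 374 CPM in P199L-ERG libraries (-0.73 ± 0.07). The 4 genes of the run on chromosome 19 (11469366 to 11604849), *Ms4a6c*, *BE692007*, *Ms4a6b* and *Ms4a6d*, fell by similar amounts, from 0.42 to 0.48, and the call on *Ms4a6d* ended without BB replicate 1, 2 or 4 or P199L-ERG replicate 1, 2 or 4 (-0.46 to -0.39). Paralogs can share reads in the *Pilrb* and *Ms4a6* genes, which was not measured, so their separate values are uncertain.

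The share of genes called was smallest at the lowest mean levels and largest at the highest, without a steady rise between them. Of the 3241 genes with the lowest mean levels 5.18% were higher and 6.60% lower, and of the 3241 with the highest 10.5% and 10.7%. Of 10984 protein-coding genes 9.01% were higher and 9.88% lower, and of 585 processed pseudogenes 0.855% and 0.513%. By chromosome, the share higher ran from 6.29% on chromosome 17 to 12.5% on chromosome 16, which holds the stefin A genes, and the share lower from 4.55% on chromosome 18 to 10.7% on chromosome 10.

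The same pair of constructs was also compared in DMSO, in separate libraries. Replicate 4 of P199L-ERG cells in DMSO stood apart from its group. The chi-square of its counts against each of the other replicates was 14.1 to 23.8 per degree of freedom, where the other pairs of that group gave 2.36 to 5.04 and pairs in the other groups 1.52 to 8.45. In DMSO 3652 genes differed, 28.2% of those tested, with 1981 higher (15.3%) and 1671 lower (12.9%). In the groups compared alone 1043 were higher and 1194 lower in DMSO, against 1221 and 1388 with BRD3308, so that which treatment had more calls changed with the libraries fitted. Of the 1052 genes higher with BRD3308, 749 were also higher in DMSO, 71.2% of the former and 37.8% of the latter. For lower genes the number was 826, 72.3% and 49.4%. Of the genes called with BRD3308, 95.2% of those higher and 96.4% of those lower had the same sign in DMSO, and 0 and 3 were called in the opposite direction. Differences that were called in DMSO were smaller with the inhibitor, with medians of 0.26 in DMSO and 0.13 with BRD3308 for higher genes and -0.27 and -0.17 for lower genes. Genes called with BRD3308 had medians of 0.27 with BRD3308 and 0.27 in DMSO when higher, and -0.32 and -0.32 when lower. Each pair of medians is over genes chosen by 1 of the 2 comparisons and is given as a description. Of the genes called with BRD3308 and not in DMSO, 303 higher and 313 lower, the test of the difference between treatments passed in 4 and 4.

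Gene groups kept their direction in part. In DMSO, 8 secondary and tertiary granule genes were lower and 4 higher (median -0.56), with *Cebpe* among the latter. In the same cells 8 monocyte genes were lower and 3 higher (-0.50), and 10 stem and progenitor genes higher and 2 lower (0.37). MHC class I presentation had 5 of 12 genes higher in DMSO (median 0.16) beside none with BRD3308, and for none of the 12 did the difference between treatments pass. *Postn* was at -3.57 in DMSO, *Serpina3g* at 7.98 and *Stfa3* at 3.66, and for none of the 3 did the difference between treatments pass (adjusted p = 0.276, 0.573 and 0.704).

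**Figure D4:**
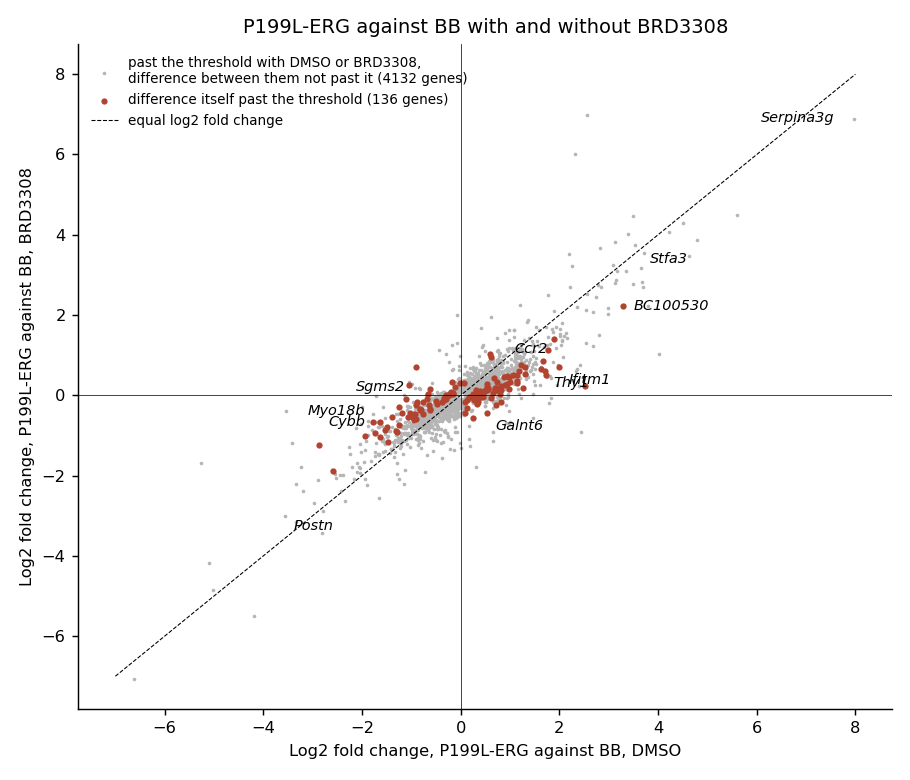
Log2 fold change between P199L-ERG and BB cells in DMSO (x axis) and with BRD3308 (y axis) for genes that passed adjusted p under 0.05 in at least 1 of the 2; red points are the 136 genes whose difference between treatments passed as well, grey points the other 4132, and the dashed line marks equal values. In 64 of the red genes the constructs differed in the same direction in both treatments and less with the inhibitor, between the dashed line and the horizontal line at 0, and *Galnt6* is 1 of 3 genes called in both treatments with opposite signs.

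The difference between constructs itself changed with BRD3308 in 136 genes, 1.05% of those tested, as the difference with BRD3308 minus that in DMSO. It was more positive in 59 and more negative in 77, and 1656 genes had an unadjusted p under 0.05. These counts moved with single libraries, to 34 and 45 without replicate 3 of BB cells in DMSO and to 36 more positive without replicate 4 of P199L-ERG cells with BRD3308. With replicate 4 of the P199L-ERG and WT-ERG cells in DMSO left out they were 92 and 111, and without the low-count filter 159 and 141. A fit with a term for the replicate number gave 213 and 254. In 64 of the 136 genes the constructs differed in both treatments in the same direction and less with BRD3308. In 59 genes they differed only in DMSO. They differed more with BRD3308 in 2 genes, *Itih5* (0.61 in DMSO and 0.96 with BRD3308) and *Phlpp2* (0.60 and 1.04), and in opposite directions in 3, *Galnt6*, *Cdkn1a* and *Dnajb9*, of which *Itih5*, *Phlpp2* and *Dnajb9* are named here after their values were seen. A further 8 genes differed only with BRD3308.

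*Ifitm1*, an interferon-induced membrane protein, gave the smallest p. In DMSO it was at 48.3, 49.1, 52.9 and 54.1 CPM in BB and at 185, 204, 206 and 221 CPM in P199L-ERG cells, and with BRD3308 at 163, 175, 170.0 and 194 and at 279, 289, 289 and 281 CPM. Both constructs were higher with the inhibitor, BB by more, and the difference fell from 1.996 to 0.70 (change -1.30 ± 0.09, adjusted p = 1.3e-10). *Thy1* was at 8.87, 8.19, 10.2 and 8.36 CPM in BB and at 31.3, 30.1, 28.2 and 25.96 CPM in P199L-ERG cells in DMSO, and at 131, 126, 123 and 138 and at 209, 193, 192 and 193 CPM with BRD3308 (change -1.09 ± 0.10, adjusted p = 8e-08). BB was thus below P199L-ERG in each treatment, while the ratio of the constructs was smaller with BRD3308. *Pecam1* (-0.66 ± 0.06), *Ifitm3* (-0.68 ± 0.07), *Ccr2* (-0.61 ± 0.07) and *Gata2* (-0.57 ± 0.14, adjusted p = 0.0367) changed in the same way. *Pld4*, an endolysosomal exonuclease, differed in DMSO (0.62) and was at -0.06 ± 0.05 with BRD3308 (adjusted p = 0.458).

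Genes that were lower in P199L-ERG cells gave the mirror image. *Sgms2*, a sphingomyelin synthase, was at 234, 236, 245 and 243 CPM in BB and at 134, 138, 128 and 119 CPM in P199L-ERG cells in DMSO, and at 202, 201, 197 and 202 and at 185, 182, 168 and 178 CPM with BRD3308. Here BB was lower and P199L-ERG higher with the inhibitor, so that the difference went from -0.88 to -0.17 (change 0.71 ± 0.06, adjusted p = 2.8e-09). *Cybb* was at 44.6, 47.9, 54.6 and 52.7 CPM in BB and at 14.8, 14.1, 13.9 and 17.3 CPM in P199L-ERG cells in DMSO (change 0.80 ± 0.10, adjusted p = 2.5e-05). *Csf2rb2*, a beta chain for interleukin-3, was lower in DMSO (-0.68) and was at -0.09 ± 0.04 with BRD3308 (adjusted p = 0.137). It can share reads with its paralog *Csf2rb*, which was not measured. *Myo18b*, an unconventional myosin (1.11 ± 0.14), *Abca13*, a membrane transporter (0.76 ± 0.11), and *F13a1* (0.35 ± 0.05) changed in the same way. In the monocyte list the change passed for 4 of 14 tested genes, 3 of them towards a smaller deficit. In the S100 and stefin list it passed for 3 of 15, each towards a smaller excess, beside 1.05% of all genes tested. *BC100530* is one of the latter, at 3.28 in DMSO and 2.21 with BRD3308 (adjusted p = 0.00568).

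P199L-ERG and WT-ERG cells were compared directly under BRD3308, and 441 genes differed, 3.40% of those tested, 170 higher and 271 lower in P199L-ERG cells. At an unadjusted p under 0.05, 1619 genes passed. WT-ERG and BB libraries are each set against the same P199L-ERG libraries, so the values below stand side by side with no test of their likeness. *Itga1* was at 1.10, 1.23, 1.40 and 1.07 CPM in WT-ERG libraries, below the BB libraries given above, and P199L-ERG exceeded WT-ERG by 3.56 ± 0.16 (adjusted p = 1.9e-15). *Sorl1*, a sorting receptor related to sortilin, was at 7.75, 8.20, 6.28 and 7.26 CPM in WT-ERG, 26.8, 25.02, 25.3 and 24.5 CPM in BB and 38.9, 40.6, 41.5 and 41.3 CPM in P199L-ERG libraries (P199L-ERG over WT-ERG 2.46 ± 0.09, adjusted p = 8.2e-17). *Miga1*, a mitochondrial fusion protein, was at 3.23, 4.19, 2.54 and 3.67 CPM in WT-ERG and at 19.5, 18.3, 17.6 and 17.99 CPM in BB libraries, with P199L-ERG at 16.1, 18.3, 15.6 and 17.96 CPM (2.31 ± 0.12 over WT-ERG, adjusted p = 9.4e-14). In these 3 genes WT-ERG was the lowest of the 3 constructs. *Cysltr1* (2.53 ± 0.14), *Fgl2*, a fibrinogen-like protein (1.12 ± 0.06), and *Tspoap1* (1.06 ± 0.06) were higher in P199L-ERG than in WT-ERG as well.

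In the other direction, *Mogat2* was at 71.7, 72.3, 74.5 and 80.6 CPM in WT-ERG libraries, between BB and P199L-ERG (P199L-ERG over WT-ERG -1.18 ± 0.06, adjusted p = 7.3e-14). *Bex3* was at 9.43, 8.44, 8.21 and 7.72 CPM, also between them (-1.61 ± 0.13, adjusted p = 7.4e-10). *Galnt6*, an enzyme of mucin glycosylation, was at 21.8, 19.5, 21.2 and 20.1 CPM in WT-ERG, 11.2, 10.4, 10.01 and 10.1 CPM in BB and 7.73, 7.03, 8.04 and 7.77 CPM in P199L-ERG libraries (-1.44 ± 0.10, adjusted p = 1.8e-11). WT-ERG was here the highest and P199L-ERG the lowest of the 3. *Fbln1* was at 48.8, 44.4, 41.1 and 42.9 CPM in WT-ERG libraries, above P199L-ERG (-1.20 ± 0.07, adjusted p = 3.8e-13), *Npepl1*, an aminopeptidase, was at -0.79 ± 0.07 and the histone gene *Hist1h4i* at -0.92 ± 0.09. The stefin A genes *Stfa3* (-0.98 ± 0.13), *Gm5416* (-0.92 ± 0.11), *Stfa2* (-0.77 ± 0.15), *BC117090* (-0.60 ± 0.15) and *BC100530* (-0.56 ± 0.14) were lower in P199L-ERG than in WT-ERG, by less than their excess over BB, and *Serpina3g* was lower as well (-0.39 ± 0.08, adjusted p = 0.00415). *Postn* was at 5.36, 5.12, 4.87 and 3.67 CPM in WT-ERG libraries, and P199L-ERG was at -0.24 from it with a 95% interval of -0.54 to 0.06 (adjusted p = 0.564). For *Cybb* the difference from WT-ERG was 0.02 (95% interval -0.12 to 0.15), for *Sort1* 0.04 (-0.08 to 0.17) and for *Gata2* -0.03 (-0.20 to 0.15), and none of them passed.

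**Figure D5:**
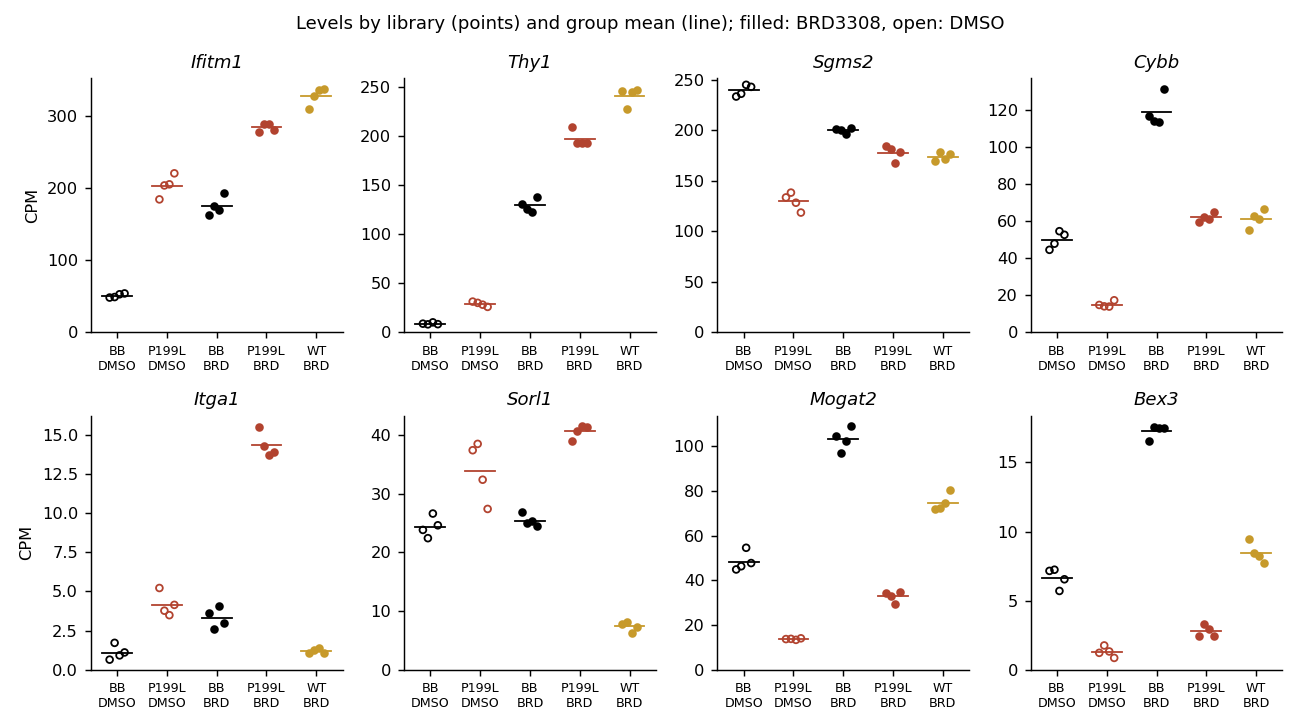
CPM (y axis, from 0) of 8 genes in the 4 libraries of each of 5 groups, BB and P199L-ERG in DMSO (open) and BB, P199L-ERG and WT-ERG with BRD3308 (filled), with lines at the group means. In the upper row the ratio between constructs is smaller with BRD3308, and in the lower row WT-ERG lies apart from P199L-ERG, below it for *Itga1* and *Sorl1* and above it for *Mogat2* and *Bex3*.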

How the data were processed

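RNA was taken with TRIzol and sequenced from 6 groups of 4 libraries. The authors discarded reads under 30 bp, mapped the rest with STAR to GRCm38 and deposited whole-number read counts per gene, with no normalization. Cutadapt, HTSeq and DESeq2 are named in the submitters' processing notes without versions. The sources used here do not give the strand setting or the annotation. Of 53801 genes, 53706 matched GENCODE M21, which gave names, positions and exon lengths.

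Counts were filtered with filterByExpr, scaled by TMM and fitted with edgeR 4.0.16 (R 4.3.3) by its quasi-likelihood test over all 24 libraries, with 1 coefficient per group, so that all groups share 1 estimate of the spread. P-values were adjusted by Benjamini-Hochberg over 12963 genes, with a threshold of 0.05. The SE of a log2 fold change is its size divided by the root of F. P-values measure the spread between these libraries, since separate transductions are not stated. The fit was also run on simulated counts, drawn independently for each library, and the outcome is not reported here. Alternatives used limma 3.58.1 and DESeq2 1.42.0, other scalings, filters and thresholds, the groups alone, a replicate block and leaving out libraries.

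Genes named are the 12 largest rises and falls among called genes whose mean log2 CPM was 2 or more and whose groups did not overlap, up to 4 members of each of 34 lists with the smallest p and members called against their list, the 6 with the smallest p in each direction in the change with BRD3308 and against WT-ERG, and *Erg* and *Gata2*. The comparison, lists and rules were chosen with earlier results of these data known. Values of some list members are not reported here.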

Additional observations from a re-analysis of the deposited data

Results flagged for a closer look

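Of 364 groups of 4 libraries tested by Dixon's ratio, 14 held a library apart from the other 3 (critical value 0.829), and chance flags about 1 group in 20. In BB cells with BRD3308, replicate 1 stood apart for *Bex3* (16.56 CPM beside 17.48 to 17.54), *Tspoap1* (340.9 CPM), *Csf3r* (157.1 CPM), *H2-DMa* (43.28 CPM) and *Mcpt8* (30.21 CPM). Replicate 2 of that group stood apart for *Pf4* (20.18 CPM) and *Bcl2* (21.72 CPM), and replicate 4 for *Sort1* (230.8 CPM beside 237.8 to 239.1), *Csf2rb2* (130.4 CPM) and *Serpinb8* (3.829 CPM). In P199L-ERG cells with BRD3308, replicate 1 stood apart for *Thy1* (209.2 CPM), replicate 2 for *Hdc* (164.2 CPM), and replicate 4 for *Tbl1xr1* (100.3 CPM) and *Tlr2* (45.38 CPM).

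For 27 named genes the difference between P199L-ERG and BB cells with BRD3308 differed from that in DMSO, by the adjusted p of the change itself in edgeR. The change, on the log2 scale and as the difference with BRD3308 minus that in DMSO, was negative for *Ifitm1* (-1.298), *Thy1* (-1.094), *BC100530* (-1.066), *Galnt6* (-0.9743), *Stfa1* (-0.8101), *Adam8* (-0.7817), *Pld4* (-0.6862), *Ifitm3* (-0.6751), *Pecam1* (-0.6648), *Ccr2* (-0.6143), *Gata2* (-0.5726), *Nkg7* (-0.5526), *Serpinb10* (-0.5153), *Cdkn1a* (-0.5111) and *Serpinf1* (-0.2572). It was positive for *Myo18b* (1.11), *Cybb* (0.7955), *Abca13* (0.763), *Ighm* (0.7171), *Sgms2* (0.7134), *Prom1* (0.6821), *Cd80* (0.6565), *Csf2rb2* (0.5844), *Igll1* (0.5822), *Thbs1* (0.5185), *Adgre1* (0.4602) and *F13a1* (0.3484).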

How the results depend on the processing

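For P199L-ERG against BB with BRD3308, 1052 genes higher and 1142 lower became 1022 and 1169 with RLE size factors, 1188 and 1068 with library size alone, 996 and 1137 in DESeq2, 631 and 750 at an adjusted p under 0.01, and 121 and 128 with a log2 fold change beyond 1. The change between treatments (59 and 77) was called in 159 and 141 genes without a filter on low counts, in 26 and 35 at 0.01, in 5 and 6 beyond 1, and in 92 genes that were more positive when replicate 4 of the P199L-ERG and WT-ERG cells in DMSO was left out. Against WT-ERG, 146 genes were lower at 0.01, and 37 higher and 27 lower beyond 1. In DMSO, 1043 genes were higher in the groups compared alone, 1214 higher and 1089 lower at 0.01, and 189 and 172 beyond 1. Leaving out 1 library gave 776 to 942 higher and 966 to 1186 lower with BRD3308, 34 to 71 and 45 to 105 for the change, 130 to 160 and 181 to 217 against WT-ERG, and 1633 to 2177 and 1384 to 1726 in DMSO. The cause of these shifts was not tested. For single named genes, 3547 values kept direction and side of the threshold, 212 lost a call and 28 gained one. In 3 values the sign changed with no call in either fit, and no called value changed sign.

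The groups share replicate numbers, but nothing in the labels says that a number marks a shared culture. Between P199L-ERG and BB cells with BRD3308, deviations of libraries with the same number correlated at 0.051 to 0.282 across genes. Those with different numbers correlated at -0.196 to 0.083, and 3 of 4 numbers correlated best with their own. Libraries of the same number thus shared some variation, for which the main fit has no term and the replicate block does. With a replicate block the counts were 1481 higher and 1542 lower with BRD3308, 213 and 254 for the change, 295 and 437 against WT-ERG, and 2529 and 2169 in DMSO. With BRD3308 it also called *H2-DMa* (-0.16), *Cd80* (-0.24), *B2m* (-0.11), *H2-D1* (-0.08), *Rrm2* (-0.15) and *Tyms* (-0.12) lower, and *Tbl1xr1* (0.13) and *Tcf4* (0.16) higher. Genes at low counts have the widest errors, and a difference that did not pass there was not detectable at this depth.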
